A study of Homo sapiens with 27 samples.

Results

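MMP2sh1 cells were compared between the subconfluent state (labelled Proliferating, day −2) and confluence (labelled Confluent, day 0). These are U2OS cells, a human osteosarcoma line, that were transduced with a lentiviral pLKO.1 vector carrying the first of 2 hairpins against MMP2 (labelled MMP2KD_23), selected with puromycin and kept as a single stable line; all lines grew in DMEM with fetal bovine serum. All 6 libraries of the comparison, 3 per day, thus carry the hairpin, and no control library enters it. Of 55882 gene symbols in the deposited tables, the 19019 that passed a filter on low counts in these 6 libraries were tested. The study prepared poly(A) RNA from this line, from a second hairpin line (MMP2sh2, labelled MMP2KD_26) and from a line labelled WT that, by the treatment notes, carries the empty pLKO.1 vector (the control) at day −2, day 0 and day +2, when the cells were overconfluent. Each of these 9 groups has 3 libraries, from independent cultures by the study's account. The day 0 cells are those plated at low density at day −2 and grown for 2 days, so that density, time in culture and exhaustion of the medium cannot be told apart here. RNA was taken from whole dishes, and fewer cells expressing a gene cannot be told apart from less RNA per cell.

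When adherent cells fill a dish, contacts between neighbours and a rounder, less spread shape change how much of their actin is stretched, how far growth factors reach them and how fast they divide. Several transcription factors read these inputs: YAP and TEAD factors follow cell spreading, SRF follows the state of actin, AP-1 and the immediate early genes follow growth factor signals, and NF-kB follows cytokine and stress signals. MMP-2 is a secreted gelatinase of the matrix metalloproteinase family, which the study examined as a protease of the histone H3 tail, and CTSB (cathepsin B) is a lysosomal cysteine protease.

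All 6 libraries were deep: totals on genes were 33580129 to 59142223 counts per library. Pairs of libraries differed by more than counting noise within each day. The share of reads that lay on no annotated exon was 5.89% to 6.78% at day −2 and 8.12% to 8.25% at day 0, so that it did not overlap between the days; the part of this difference in the results was not tested. Mitochondrial genes took 4.24% to 6.55% and 5.18% to 6.13%. The first day −2 library lay below the other 2 for several matrix genes (FN1 at 394 against 634 and 709 CPM). Of 18 mesenchymal and U2OS marker genes, each had reads in at least 1 of the 6 libraries and 3 stayed under 1 CPM (TWIST1, at 0 in 5 libraries, NT5E, at 0 in the day −2 libraries, and ZEB2); the summed level of the 18 was 5053 to 5884 CPM (reads of a gene as a share of the scaled library total) at day −2 and 5576 to 6169 CPM at day 0. COL1A2, which is in the fibrillar collagen list, was at a mean of 0.256 CPM over the 6 libraries. Of 24 markers of epithelial, blood, endothelial, neural and other cells, 15 stayed under 1 CPM and 4 (ADIPOQ, ALB, CD3E and HBB) were at 0 in all 6 libraries. The summed level of the 24 was 1012 to 1114 CPM at day −2 and 708 to 730 CPM at day 0. Most of it came from KRT8 and KRT18, the simple keratins that U2OS cells themselves express, at means of 551 and 178 CPM at day −2. The neural markers TUBB3 and NEFL were also well above 1 CPM. Their means were 248 and 82.4 CPM at day −2. At day 0 TUBB3 read 187, 190 and 190 CPM and NEFL 58.6, 57.8 and 56.3 CPM.

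The targeted gene was still measurable and rose on the way to confluence. MMP2 stood at 34.0, 39.5 and 46.8 CPM in the day −2 libraries and at 53.6, 57.4 and 66.3 CPM in the day 0 libraries, from 1256 to 3241 counts per library. The groups did not overlap, and the log2 fold change was 0.56 (standard error 0.09, adjusted p = 7.5e-05). Unless another tool is named, adjusted p values here are edgeR quasi-likelihood p values corrected by the Benjamini-Hochberg method over all genes tested. Control cells were at 232 ± 14.2 and 325 ± 6.97 CPM (SD, n = 3) at the same days and changed by 0.49, and the difference of the change was 0.07 (standard error 0.11, adjusted p = 0.88). CTSB went the other way. It read 717, 826 and 873 CPM at day −2 and 639, 641 and 678 CPM at day 0, with no overlap and a log2 fold change of −0.30 (standard error 0.06, adjusted p = 0.00025). In control cells the CTSB change was 0.16, and the change in MMP2sh1 cells lay below it (difference −0.46, standard error 0.07, adjusted p = 0.00015). MMP14, a membrane protease that activates pro-MMP-2, and TIMP2, the inhibitor that takes part in that step, had log2 fold changes of 0.02 (adjusted p = 0.91) and 0.04 (adjusted p = 0.64), with overlapping groups.

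Reaching confluence was accompanied by many small changes. Of the 19019 genes, 6220 were called at an adjusted p under 0.05 (32.7%), 2845 of them higher at day 0 (15% of all tested) and 3375 lower (17.7%). The median size of a called change was 0.37 on the log2 scale. Changes above 2-fold were called for 622 genes, 441 higher and 181 lower. The levels of the groups did not overlap for 8471 genes (44.5%). Of the calls, 45.7% were higher and 54.3% lower, and with library totals in place of TMM scaling this became 63.0% and 37.0%, so the balance of directions over all genes depends on the scaling. The median over all tested genes was 0.02 with TMM scaling and 0.10 with totals.

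**Figure D1:**
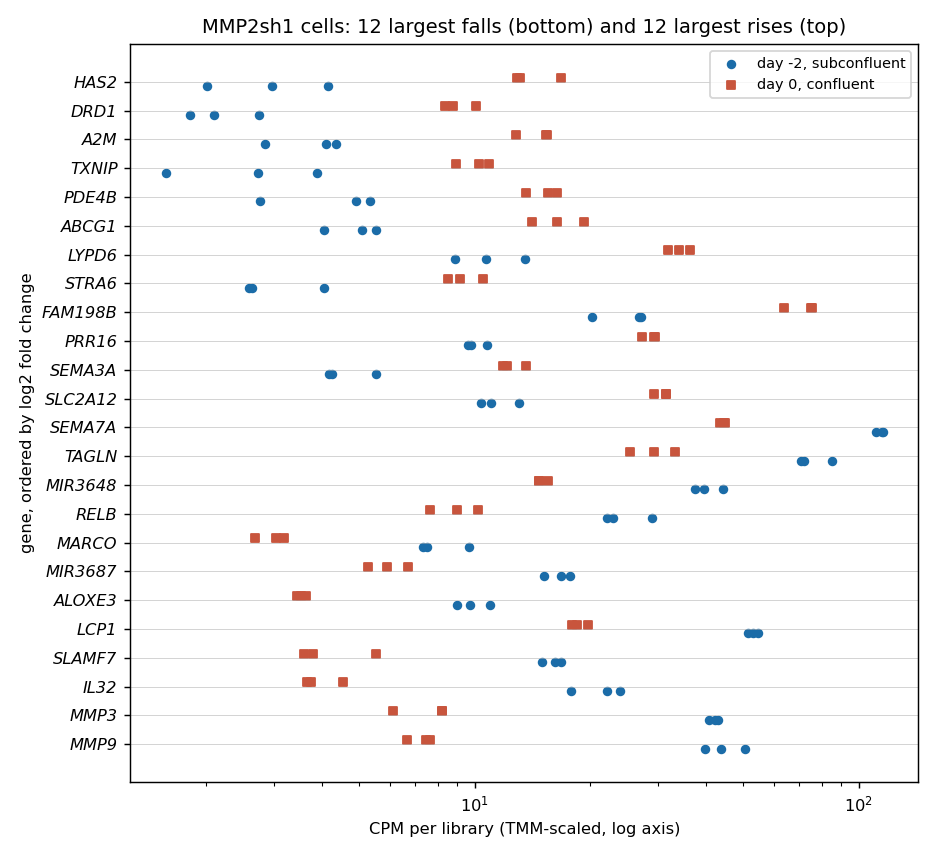
Level of each of the 24 genes with the largest called falls and rises (mean of at least 5 CPM, groups not overlapping) in the 6 MMP2sh1 libraries, in CPM on a log axis; circles are day −2 and squares day 0, 3 libraries each. The shift is widest for MMP9 (44.8 to 7.25 CPM on average) at the bottom and for HAS2 (3.04 to 14.3 CPM) at the top.

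Among genes with a mean of at least 5 CPM, the largest called falls were those of MMP9, MMP3 and IL32. MMP9, the second gelatinase of the MMP family (chromosome 20, 44637547 to 44645200 on the plus strand of GRCh37), read 39.7, 43.9 and 50.6 CPM at day −2 and 6.66, 7.44 and 7.63 CPM at day 0. Its log2 fold change was −2.63 (standard error 0.10, adjusted p = 7.8e-14), a 6.20-fold fall from 1469 to 2075 counts per library down to 257 to 403. The day 0 libraries lay close together and far below every day −2 library. MMP3 (stromelysin, which cleaves proteoglycans and activates other MMPs; chromosome 11, 102706532 to 102714340 on the minus strand) read 40.8, 43.1 and 42.1 CPM at day −2 against 8.20, 6.11 and 8.23 CPM at day 0. That is a log2 fold change of −2.48 (standard error 0.10, adjusted p = 2.2e-13). IL32, an inflammatory cytokine, went from 22.1, 17.8 and 23.9 CPM to 3.74, 4.53 and 3.65 CPM, a log2 fold change of −2.42 (standard error 0.13, adjusted p = 1.9e-11). All 3 genes were more than 5-fold lower at day 0, and the rule for choosing them required groups that did not overlap.

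The other genes of the 12 largest falls came from several classes. LCP1 (plastin 2, an actin-bundling protein of blood cells that is also made by many tumour lines) fell from 52.997 ± 1.68 to 18.7 ± 0.932 CPM (SD, n = 3), with a log2 fold change of −1.497. SLAMF7, a receptor of lymphocytes, fell by 1.89 on the log2 scale, and MARCO, a scavenger receptor of macrophages, by 1.46. SEMA7A, a membrane-anchored semaphorin, read 115, 115 and 111 CPM at day −2 and 44.4, 44.8 and 43.4 CPM at day 0 (log2 fold change −1.36, standard error 0.06, adjusted p = 2.2e-13). ALOXE3, a lipoxygenase known from skin, fell by 1.48. MIR3648 and MIR3687, further entries of this group, are hairpin loci beside each other on chromosome 21 (9825832 to 9826011 and 9826203 to 9826263, plus strand of GRCh37). They went from 40.4 ± 3.46 to 14.98 ± 0.471 CPM and from 16.5 ± 1.30 to 5.95 ± 0.710 CPM. In poly(A) libraries such reads come from longer transcripts over the locus, so these values are not levels of a mature miRNA. Which transcripts gave them was not tested. RNA18S5, an entry for ribosomal RNA, had a log2 fold change of −0.67 in the same cells.

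RELB and TAGLN completed the 12 largest falls. NF-kB dimers of RELA, RELB, REL, NFKB1 and NFKB2 proteins are held in the cytoplasm by inhibitors (NFKBIA, NFKBIB, NFKBIE) and, once freed, bind the kB motif in promoters of cytokine, survival and antigen presentation genes, among them the genes of their own inhibitors. Because several of the strongest falls are known targets, a list of 68 NF-kB pathway and target genes was drawn up after their values were seen, and it is given as a description only. Of the 55 that were tested, 36 were called lower (background 17.7%), 2 were called higher (background 15%) and 17 were not called; the median log2 fold change was −0.42, against 0.02 over all tested genes. The list holds MMP9, MMP3 and IL32 as well. The summed level of the 68 genes was 2582 to 2713 CPM in the day −2 libraries and 2033 to 2083 CPM in the day 0 libraries.

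Among the subunits, RELB read 22.9, 22.1 and 29.0 CPM at day −2 and 8.96, 10.2 and 7.63 CPM at day 0 (log2 fold change −1.46, standard error 0.12, adjusted p = 7.5e-09). NFKB2, the precursor of the partner of RELB, went from 80.7, 83.2 and 92.4 CPM to 56.2, 62.7 and 58.4 CPM (−0.53, standard error 0.06, adjusted p = 1.7e-06). RELA changed less, by −0.29, and REL, at 0.14, was not called. The inhibitor genes NFKBIE, NFKBIB and NFKBIA had log2 fold changes of −1.08, −0.75 and −0.37, all called. TNFAIP3 (A20, an enzyme that shuts the pathway off) read 8.82, 10.3 and 10.6 CPM at day −2 and 4.53, 5.17 and 4.04 CPM at day 0 (−1.11, standard error 0.14, adjusted p = 3.1e-06). The survival gene BIRC3 had −1.04 and the receptor gene TNFRSF9 had −1.23. BCL2A1, another survival gene, had the lowest value of the list (−3.06), at a mean of only 0.38 CPM. Against the others, NFKBIZ, a nuclear member of the inhibitor family, rose from 16.1, 15.4 and 16.4 CPM to 25.5, 25.7 and 24.5 CPM (0.67, standard error 0.09, adjusted p = 3.1e-06), and TNFAIP2 rose by 0.58.

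The kB motif was searched by its consensus on both strands in the RefSeq promoters of GRCh38.p14, from 250 bases before to 50 after each annotated start, of which 35116 were given for 27305 genes. It is shown for genes that fell and for NFKBIZ, which rose, so that the shared element can be seen beside the opposite changes. Capitals mark the motif, and each window is written 5′ to 3′ on the strand of the gene; in TNFRSF9, IL32 and NFKBIB the same site also matches on the other strand, with the match shifted by 1 base.
NFKB2 (chr10:102395673-102395704, plus strand): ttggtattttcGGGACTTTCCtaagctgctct
IL32 (chr16:3065293-3065324, plus strand): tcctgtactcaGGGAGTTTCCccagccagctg
TNFAIP3 (chr6:137867181-137867212, plus strand): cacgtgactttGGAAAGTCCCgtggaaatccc
BIRC3 (chr11:102317274-102317305, plus strand): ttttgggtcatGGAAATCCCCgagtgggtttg
TNFRSF9 (chr1:7940893-7940924, minus strand): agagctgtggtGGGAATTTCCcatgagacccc
NFKBIB (chr19:38899930-38899961, plus strand): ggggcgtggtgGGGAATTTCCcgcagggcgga
TAP1 (chr6:32853756-32853787, minus strand): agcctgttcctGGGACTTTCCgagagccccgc
NFKBIZ (chr3:101827756-101827787, plus strand): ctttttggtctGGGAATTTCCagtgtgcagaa
Of all 35116 promoters, 5.91% held a match. Promoters were given for 44 of the 55 tested list genes, and 47.2% of their 72 promoters held one; for the members called lower it was 44.7% of 47 promoters. The list was written from genes known as targets, so that the share above all promoters is a property of the list and not a result of these libraries, and a match is not evidence of binding. MMP9, MMP3, RELB and NFKBIE were not among the promoters given.

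These genes took different courses over the following 2 days. In the 3 day +2 libraries of MMP2sh1 cells, MMP9 was at 67.0 ± 3.30 CPM, above its day −2 level, while MMP3 was at 0.166 ± 0.0688 CPM. RELB was at 29.1 ± 0.145 CPM, TNFAIP3 at 12.4 ± 0.762 CPM, IL32 at 12.9 ± 2.00 CPM and LCP1 at 43.98 ± 0.536 CPM. TNFRSF9, at 3.33 CPM on average at day 0, was at 1.62 ± 0.344 CPM. The lowest point at day 0 was therefore shared by MMP9, IL32, RELB, TNFAIP3 and LCP1 and not by MMP3 or TNFRSF9. The day +2 levels are given as description; day +2 was not tested against day 0 here.

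**Figure D2:**
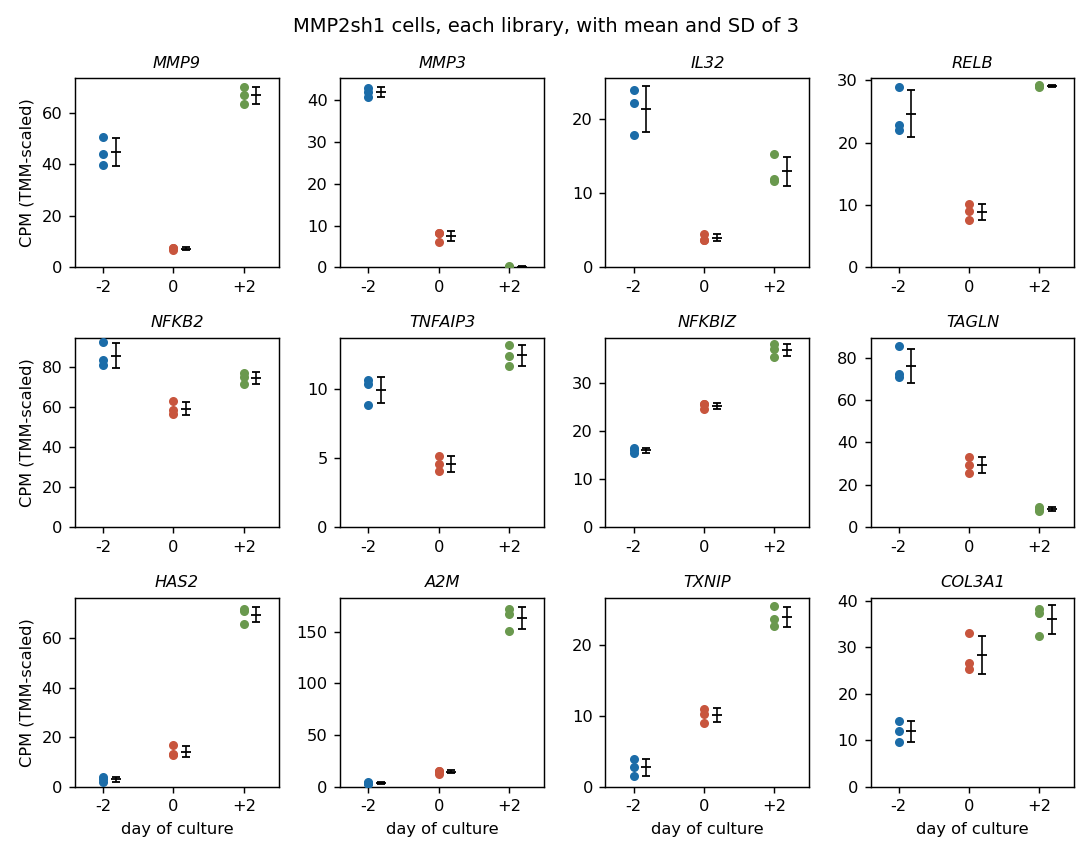
Levels of 12 genes in the MMP2sh1 libraries at day −2, day 0 and day +2, in CPM on linear axes from 0; points are libraries and bars the mean and SD of 3. MMP9, IL32, RELB, NFKB2 and TNFAIP3 dip at day 0 (MMP9 at 7.25 CPM between 44.8 and 67.0), MMP3 and TAGLN fall at each day, and NFKBIZ, HAS2, A2M, TXNIP and COL3A1 climb.

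The SRF and actin genes had more members lower than higher. SRF, bound to its cofactors of the MKL family, drives genes for actin and for proteins that cross-link and contract it when free actin is scarce. Of 33 SRF and actin genes, 20 were lower, 2 higher and 11 not called (median −0.26), where 17.7% of all tested genes were lower and 15% higher. The counts of every other list that follows stand against the same shares. TAGLN (transgelin, an actin-binding protein of smooth muscle) read 85.3, 70.6 and 72.1 CPM at day −2 and 25.4, 33.1 and 29.2 CPM at day 0. Its log2 fold change of −1.38 (standard error 0.09, adjusted p = 2.1e-10) was the deepest called in the list. CNN1 (calponin) followed, from 16.4 ± 1.24 to 7.32 ± 0.743 CPM (−1.17), and FLNC (filamin C) had −1.12. The gene for SRF itself read 51.7, 55.8 and 60.8 CPM against 41.3, 41.7 and 42.0 CPM (−0.43, standard error 0.07, adjusted p = 5.1e-05), and ACTB, cytoplasmic actin, had −0.26. Higher were CALD1 (caldesmon, 0.30) and MYH10 (a nonmuscle myosin heavy chain, 0.16).

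The element that SRF binds, the CArG box, is shown in promoters of 5 list members that fell, with the motif in capitals and coordinates on GRCh38.p14.
SRF (chr6:43171228-43171259, plus strand): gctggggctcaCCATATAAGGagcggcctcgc
SRF (chr6:43171248-43171279, plus strand): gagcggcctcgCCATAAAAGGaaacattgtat
ACTG1 (chr17:81512873-81512904, minus strand): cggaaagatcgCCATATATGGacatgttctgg
CNN2 (chr19:1026508-1026539, plus strand): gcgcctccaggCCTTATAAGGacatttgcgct
FLNA (chrX:154374708-154374739, minus strand): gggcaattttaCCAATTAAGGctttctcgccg
FHL2 (chr2:105399090-105399121, minus strand): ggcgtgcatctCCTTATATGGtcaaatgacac
The box was present in 1.29% of all promoters, in 23.2% of the 56 promoters given for 26 tested list genes and in 34.6% of the 26 promoters of members called lower. As with NF-kB, known targets were used to write the list. The 34.6% rests on 9 promoters, and FHL2 is counted repeatedly for the same site. TES, the highest member of the list (0.81, not called), also held a box. The difference between the shares of tested and lower members was not tested. The log2 fold changes of ACTG1, CNN2, FLNA and FHL2 were −0.24, −0.14, −0.26 and −0.61, all called lower. TAGLN and MYL9 were not among the promoters given.

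YAP and TEAD targets did not move one way. Of 29 tested, 13 were lower, 8 higher and 8 not called (median −0.10). CTGF and ANKRD1, the targets most often used to read YAP activity, were higher: CTGF read 180.4, 195 and 194 CPM at day −2 and 217, 240.4 and 241 CPM at day 0 (0.29, standard error 0.05, adjusted p = 0.00017), and ANKRD1 had 0.25. CYR61, the third of these targets, was slightly lower (−0.14, adjusted p = 0.025, lost with library totals and on leaving out the first or the third day 0 library). In MMP2sh2 cells CTGF had −0.08 (adjusted p = 0.29), and its change in MMP2sh1 cells lay above that (difference 0.38, standard error 0.08, adjusted p = 0.014). WWC1 (KIBRA, an upstream regulator of the pathway) fell from 145 ± 2.69 to 79.8 ± 2.48 CPM (−0.86), and F3 (tissue factor) fell by 0.75. AP-1 and immediate early genes were lower in 14 of 32 cases and higher in 4 (median −0.26). FOSL1 read 55.8, 54.7 and 64.2 CPM against 37.7, 41.2 and 35.9 CPM (−0.60, standard error 0.07, adjusted p = 2.1e-06). EGR1 (−0.74), JUN (−0.43), MYC (−0.34) and the growth factor gene HBEGF (−0.79) were lower too. PHLDA1 went against them, from 9.63, 14.8 and 17.3 CPM to 34.5, 32.2 and 33.4 CPM (1.26, standard error 0.13, adjusted p = 1.8e-07).

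**Figure D3:**
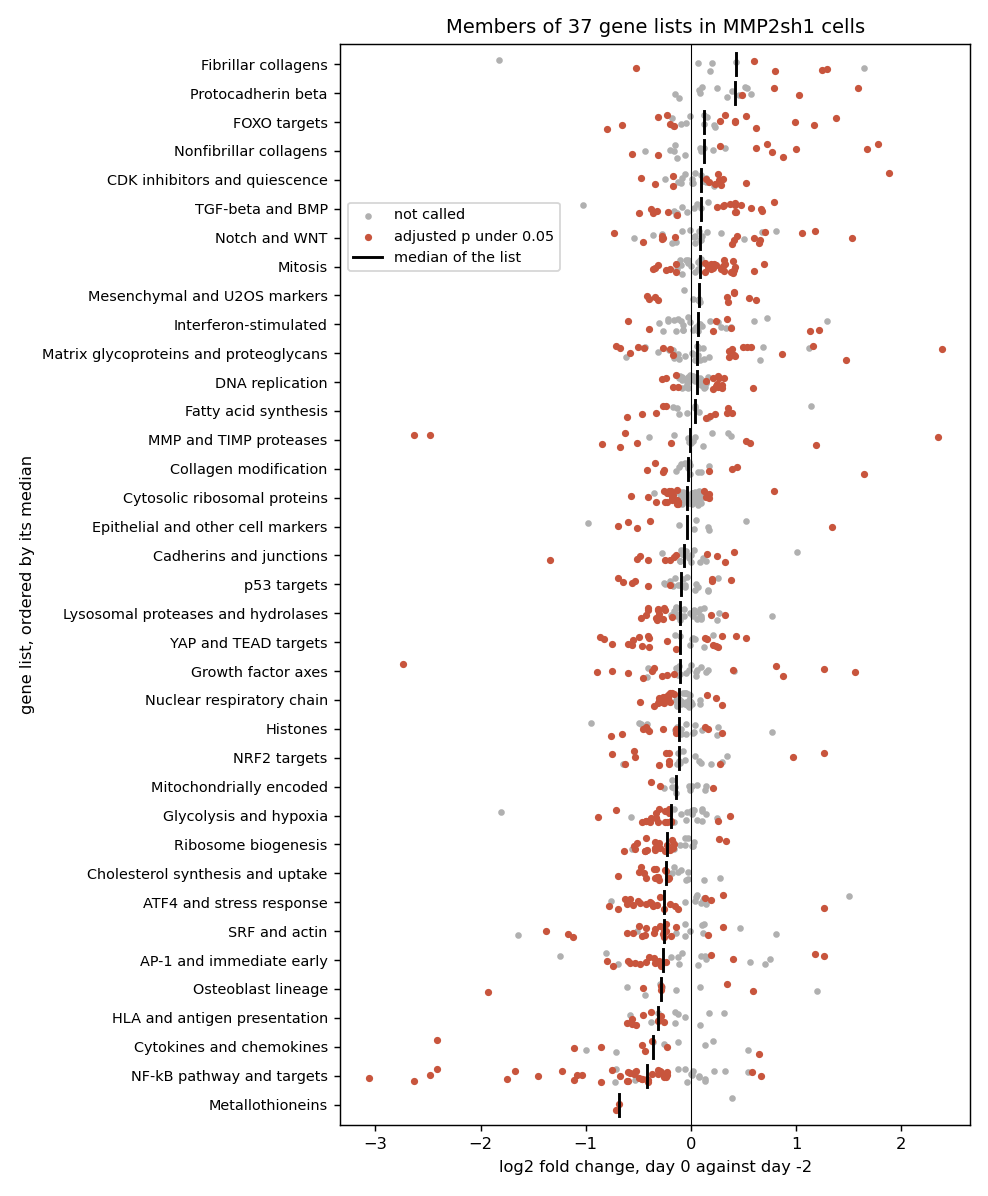
Log2 fold change from day −2 to day 0 of every tested member of 37 gene lists in MMP2sh1 cells; red points are called at an adjusted p under 0.05, grey points are not, and black bars are list medians. The medians run from −0.68 in the metallothioneins (3 genes tested) and −0.42 in the NF-kB list to 0.43 in the fibrillar collagens, and all lists but the cholesterol, HLA, protocadherin beta and metallothionein lists hold called members on both sides of 0.

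Among genes with a mean of at least 5 CPM, HAS2 rose most. HAS2, the main hyaluronan synthase, read 2.00, 2.95 and 4.15 CPM at day −2 and 13.1, 12.9 and 16.8 CPM at day 0 (2.22, standard error 0.18, adjusted p = 7.9e-09), a 4.66-fold rise from 74 to 170 counts per library. A2M, the broad protease inhibitor alpha-2-macroglobulin, read 2.84, 4.10 and 4.34 CPM against 15.3, 12.8 and 15.4 CPM (1.95, standard error 0.15, adjusted p = 2.9e-09). At day +2 the libraries were higher again, at 69.7 ± 3.19 CPM for HAS2 and 163 ± 10.96 CPM for A2M. TXNIP, which binds thioredoxin and limits glucose uptake, read 1.57, 2.72 and 3.88 CPM at day −2 and 10.9, 8.94 and 10.3 CPM at day 0 (1.88, standard error 0.21, adjusted p = 4.1e-07). ABCG1, a cholesterol exporter, read 4.06, 5.07 and 5.54 CPM against 16.3, 14.1 and 19.2 CPM (1.76, standard error 0.14, adjusted p = 4.4e-09). In all 4 genes every day 0 library lay above every day −2 library.

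DRD1, a dopamine receptor coupled to cyclic AMP, rose by 2.04 on the log2 scale and PDE4B, a phosphodiesterase that breaks cyclic AMP down, by 1.80. PDE4B read 2.76, 4.92 and 5.32 CPM at day −2 and 16.3, 15.5 and 13.6 CPM at day 0. STRA6, the receptor for retinol-binding protein, rose by 1.6, SEMA3A, a secreted semaphorin, by 1.43, and SLC2A12, a glucose transporter, by 1.42. LYPD6, a regulator at the cell surface, rose from 11.04 ± 2.34 to 34.0 ± 2.20 CPM (1.63), FAM198B from 24.7 ± 3.90 to 71.5 ± 6.65 CPM (1.53) and PRR16 from 10.0 ± 0.627 to 28.7 ± 1.22 CPM (1.52). All 12 genes of this group were called with groups that did not overlap, which the rule for choosing them required.

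Matrix genes changed in both directions. Of 11 fibrillar collagen genes tested, 4 were higher and 1 lower (median 0.43). COL3A1 read 9.58, 11.99 and 14.2 CPM at day −2 and 26.7, 25.4 and 33.1 CPM at day 0 (1.25, standard error 0.12, adjusted p = 8e-08). COL5A2 went from 56.7, 75.8 and 77.0 CPM to 115, 123 and 126 CPM (0.80, standard error 0.08, adjusted p = 1.4e-07). COL1A1, by contrast, had 0.07 (adjusted p = 0.53), with overlapping groups. The list median lay between 0.25 and 0.59 when single libraries were left out. Of 21 nonfibrillar collagens, 8 were higher and 2 lower (median 0.12), with COL9A2 at 0.99 and COL8A1 at −0.56; collagen-modifying enzymes were split 4 and 4 of 20. Among 43 matrix glycoproteins and proteoglycans, 12 were higher and 8 lower (median 0.06). LUM (lumican, a small proteoglycan of collagen fibrils) read 12.2, 13.9 and 15.7 CPM against 33.2, 29.0 and 30.7 CPM (1.16, standard error 0.10, adjusted p = 1.1e-08), and LTBP3, which binds latent TGF-beta, had 0.87. FN1 (fibronectin) had 0.41 with overlapping groups, at 394, 634 and 709 CPM against 694, 748 and 869 CPM, and was not called by DESeq2 (adjusted p = 0.22) or without the third day 0 library (adjusted p = 0.092). ACAN (aggrecan, −0.72), SDC4 (a syndecan, −0.67) and TNC (tenascin C, −0.58) fell; SDC4 and TNC also stand in the NF-kB list.

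Proteases and their inhibitors changed in both directions, 4 of 22 higher and 7 lower (median −0.01, with the sign depending on the setting). Beside MMP9 and MMP3, the inhibitor TIMP3 fell from 79.4 ± 3.20 to 49.6 ± 1.01 CPM (−0.68), and TIMP1 had −0.19. PLAT, the tissue plasminogen activator, rose by 0.52. Among 40 lysosomal genes, 14 were lower and 2 higher (median −0.10). CTSL (cathepsin L) had −0.47 and LAMP1, a protein of the lysosomal membrane, −0.33, on the same side as CTSB.

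Of 30 cadherin and junction genes, 8 were lower and 4 higher, with a median of −0.07 that became 0.01 with library totals. CDH4 (R-cadherin) had −0.51 and PVR, a nectin-like adhesion protein, −0.48, while the gap junction gene GJA1 rose by 0.33. Of 16 protocadherin beta genes, 4 were higher and none lower (median 0.42). PCDHB10 and PCDHB11 had 1.02 and 0.79, at means of 3.48 and 7.79 CPM at day 0; these genes resemble each other closely, so that reads may be divided among them.

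Sterol genes were lower in part. Of 25 genes of cholesterol synthesis and uptake, 15 were lower (background 17.7%) and none higher (background 15%; median −0.24; edgeR at an adjusted p under 0.05). SQLE (squalene epoxidase) read 212, 221 and 219 CPM at day −2 and 170.2, 180.0 and 173 CPM at day 0 (−0.32, standard error 0.05, adjusted p = 2.9e-05). HMGCS1, an early enzyme of the pathway, went from 190.3, 177 and 178 CPM to 146, 142 and 137 CPM (−0.35, standard error 0.05, adjusted p = 1.4e-05). With ABCG1 higher, the exporter and the synthesis genes thus had opposite signs. The sterol regulatory element TCACNCCAC, searched on both strands, was found in 1.13% of all promoters and in 1 of the 24 given for this list, that of SREBF2. Fatty acid genes were mixed (6 higher and 5 lower of 20, median 0.04): FADS1, a desaturase, had 0.39, FADS3 −0.60 and FASN −0.24.

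Glycolysis and hypoxia genes were lower in 19 of 39 cases and higher in 2 (median −0.19). EPAS1 (HIF-2alpha) read 52.2, 47.5 and 54.6 CPM against 29.1, 29.3 and 24.8 CPM (−0.88, standard error 0.08, adjusted p = 2.7e-08). The glucose transporter SLC2A1 had −0.33, the enzymes ENO1, PKM and GAPDH −0.33, −0.21 and −0.19, and LDHA, at −0.10, was not called. ENO1, PKM, GAPDH, ACTB and MT-CYB were the 5 most abundant genes called lower. The hypoxia element ACGTG was found in 41.7% of the 60 promoters given for the list and in 21.4% of all promoters, a short motif that occurs often.

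Amino acid and stress genes fell in part. Of 33 ATF4 and stress response genes, 19 were lower and 4 higher (median −0.26). SLC7A5, the leucine transporter, read 711, 719 and 748 CPM at day −2 and 409.9, 432 and 425 CPM at day 0 (−0.78, standard error 0.04, adjusted p = 3.8e-11). SESN2 had −0.69 and DDIT3 (CHOP) −0.63, whereas ASNS (asparagine synthetase) had 0.14 and did not pass the test (adjusted p = 0.055). SLC7A11, the cystine and glutamate exchanger, stood out from the list (chromosome 4, 139085251 to 139163503, minus strand of GRCh37). It read 34.7, 38.5 and 38.5 CPM at day −2 and 87.0, 93.6 and 86.8 CPM at day 0, a log2 fold change of 1.26 (standard error 0.07, adjusted p = 7.4e-12). The C/EBP-ATF element TGATGNAA was found in 3.62% of all promoters and in 18.4% of the 38 given for the list; SLC7A11 was not among them. Of 25 NRF2 targets, 9 were lower and 3 higher (median −0.12), with HMOX1 (heme oxygenase, −0.63) and FTH1 (ferritin heavy chain, −0.54) below 0 and SLC7A11 again the highest. Both called metallothioneins of 3 tested fell, MT2A from 610.1 ± 40.8 to 373 ± 4.33 CPM (−0.71) and MT1E by 0.68 on the log2 scale; these small genes resemble one another.

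Genes of cell division were called higher more often than all tested genes, and called lower no more often. Of 43 mitosis genes, 20 were higher (46.5%, background 15%) and 7 lower (16.3%, background 17.7%), with a median of 0.09. Of 44 DNA replication genes, 12 were higher (27.3%) and 5 lower (11.4%), with a median of 0.06. The proliferation marker MKI67 read 619, 652 and 619 CPM against 674, 668 and 735 CPM (0.14, adjusted p = 0.028). The call was lost without the third day −2 library (adjusted p = 0.079), without the first (0.053) or the third (0.23) day 0 library, and by DESeq2 on all 27 libraries (0.079). CENPE, a kinetochore motor, read 68.2, 60.3 and 60.9 CPM at day −2 and 108, 100.004 and 98.2 CPM at day 0 (0.70, standard error 0.06, adjusted p = 2.7e-08), and CENPF had 0.60. Other mitotic genes fell: PLK1 read 213, 195 and 199.7 CPM against 165, 156 and 158 CPM (−0.34, standard error 0.05, adjusted p = 2.3e-05), CDCA8 had −0.36 and CCNB1 (cyclin B1) −0.23. In the replication list, CCNE2 (cyclin E2, 0.59) and RRM2 (0.25) rose, the licensing factors CDT1 (−0.28) and CDC6 (−0.24) fell, and PCNA, at 0.05, was not called. Among 27 CDK inhibitors and quiescence genes, 9 were higher and 4 lower (median 0.10). CDKN1B (p27) read 56.8, 61.1 and 56.1 CPM at day −2 and 71.2, 66.6 and 70.1 CPM at day 0 (0.26, standard error 0.06, adjusted p = 0.0024). CDKN1A (p21) moved the other way (−0.34), CCNG2 had 0.52 and CCND3 (cyclin D3) −0.48.

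FOXO targets, which growth factor signalling keeps low, were higher in 9 of 25 cases and lower in 6 (median 0.13). TRIB2 read 45.0, 62.2 and 63.6 CPM at day −2 and 147, 140.3 and 157 CPM at day 0 (1.38, standard error 0.09, adjusted p = 2e-10), SESN3 had 0.99, and CITED2 had −0.80. Ribosome biogenesis genes were lower in 19 of 31 cases and higher in 2 (median −0.22), for example RRS1 (−0.63) and RRP12 (−0.54), with NOP58 at 0.33. Cytosolic ribosomal protein genes moved little: 22 of 78 were lower and 5 higher, and the median of −0.04 became 0.04 with library totals. Nuclear genes of the respiratory chain were lower in 18 of 46 cases and higher in 3 (median −0.11). Of 15 mitochondrially encoded genes, 2 were lower and 1 higher (median −0.14); MT-CYB, at 2581, 3851 and 4104 CPM against 2607, 2872 and 3117 CPM, overlapped between the days, and its call was lost on leaving out any of 4 libraries and by DESeq2 on the same (adjusted p = 0.30) and on all 27 libraries (0.072), as well as with library totals (0.11). Of 26 p53 targets, 6 were lower and 3 higher (median −0.09).

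Antigen presentation genes were lower in part. Of 20 HLA and antigen presentation genes, 9 were lower and none higher (median −0.31; edgeR at an adjusted p under 0.05). TAP1, the peptide transporter whose kB motif is given above, read 29.1, 29.6 and 28.5 CPM at day −2 and 18.7, 19.7 and 18.8 CPM at day 0 (−0.61, standard error 0.08, adjusted p = 5e-06). TAP2 had −0.56 and HLA-B −0.28; HLA genes resemble one another, and their separate values are uncertain. Among 36 interferon-stimulated genes, 6 were higher, 2 lower and 28 not called (median 0.07): IFI44 had 1.13 and IRF1 −0.60. Cytokines and chemokines were lower in 7 of 16 cases and higher in 1 (median −0.36); IL32 and TNFAIP3 are members of this list and of the NF-kB list.

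Among developmental signals, the TGF-beta and BMP list had 13 of 29 genes higher and 6 lower (median 0.09), with the BMP target ID1 at 0.32 and TGFB1 at −0.36. The Notch and WNT list had 10 of 35 higher and 6 lower (median 0.09). LGR4, a receptor for R-spondins, read 20.5, 21.4 and 26.1 CPM against 48.1, 44.8 and 47.8 CPM (1.05, standard error 0.08, adjusted p = 6.9e-09), RNF43, an inhibitor of WNT receptors, had 1.18, HES1, a Notch target, 0.60, and the ligand WNT5B −0.73. Growth factor genes were lower in 10 of 32 cases and higher in 5 (median −0.11). IGFBP5 read 35.0, 56.8 and 64.7 CPM at day −2 and 116, 116 and 145 CPM at day 0 (1.27, standard error 0.13, adjusted p = 1.8e-07), PDGFC had 0.87, FGF1 −0.89 and EGFR −0.46. In the osteoblast list, 4 of 13 were lower and 2 higher (median −0.28): ALPL, alkaline phosphatase, fell from 5.89 ± 1.25 to 1.55 ± 0.199 CPM (−1.93), while RUNX2, the lineage factor, had 0.34 and TNFRSF11B (osteoprotegerin) 0.59.

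Among marker genes, KRT8 read 569, 521 and 562 CPM at day −2 and 349, 328 and 344 CPM at day 0 (−0.69, standard error 0.05, adjusted p = 7.5e-10), and KRT18, which pairs with it, had −0.60. Of 12 tested markers of epithelial and other cells, 4 were lower and 1 higher (median −0.04, which changed sign in 3 of the settings tried), and of 15 mesenchymal markers, 6 were higher and 4 lower (median 0.08). The most abundant genes called higher were MT-RNR2 (0.21), DHRS2 (0.30), HNRNPA1 (0.17), RPL7 (0.18) and RPS27A (0.13). The call of RPS27A was lost on leaving out any of 5 of the 6 libraries and by DESeq2 on all 27 (adjusted p = 0.11), and that of MT-RNR2 without the third day 0 library (adjusted p = 0.13) and by DESeq2 on the same libraries (0.20).

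To ask which changes depended on the line, the change in MMP2sh1 cells was set against the same change in control cells and in MMP2sh2 cells, in fits of 12 libraries with a term for the difference. Against control, 279 of 20617 genes differed (1.35%), 187 with a change above that of control and 92 below. Against MMP2sh2, 92 of 20091 differed (0.458%), 56 above and 36 below. These shares are small beside the 32.7% called within MMP2sh1 cells, and a gene that was not called here is not shown to change alike.

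SLC7A11, chosen for this comparison after its values were seen, rose more in MMP2sh1 cells than in either other line. Its level in control cells was 53.6 ± 1.51 CPM at day −2 and 68.2 ± 3.41 CPM at day 0, and in MMP2sh2 cells 44.1 ± 2.36 and 50.4 ± 1.42 CPM. The difference of the change was 0.91 (standard error 0.09, adjusted p = 1.2e-07) against control and 1.08 (standard error 0.09, adjusted p = 9.8e-09) against MMP2sh2. MMP2sh1 cells thus started below both lines and ended above both.

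GLUL, glutamine synthetase, also differed from both lines. In MMP2sh1 cells it read 11.9, 10.6 and 11.2 CPM at day −2 and 7.69, 6.09 and 7.16 CPM at day 0 (−0.68, standard error 0.13, adjusted p = 0.00023), whereas control cells went from 9.32 ± 0.357 to 17.7 ± 1.07 CPM and MMP2sh2 cells from 16.1 ± 1.55 to 17.8 ± 1.19 CPM. The difference was −1.61 (standard error 0.16, adjusted p = 1.2e-07) against control and −0.81 (standard error 0.15, adjusted p = 0.0079) against MMP2sh2. For MMP9 the difference was −0.76 (standard error 0.16, adjusted p = 0.0097) against control and −0.78 (standard error 0.17, adjusted p = 0.029) against MMP2sh2. The first was not called without the third control library of day 0 (−0.66, adjusted p = 0.055), and the second was lost on leaving out each of 7 libraries in turn and in DESeq2 on all 27 libraries (adjusted p = 0.081). Its day −2 level of 44.8 ± 5.50 CPM lay above the 18.3 ± 2.14 CPM of control and the 19.4 ± 2.90 CPM of MMP2sh2, and the day 0 levels were 7.25 ± 0.513, 4.95 ± 0.778 and 5.41 ± 0.956 CPM.

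The low end of the difference against control held the following genes. KIF26B, a kinesin family member, went from 2.18 ± 0.320 to 12.6 ± 1.45 CPM in control and from 2.04 ± 0.147 to 3.52 ± 1.08 CPM in MMP2sh1 cells (difference −1.77, adjusted p = 0.00015). SGK1, a kinase induced by serum and hormones, went from 16.8 ± 0.381 to 34.7 ± 1.80 CPM in control and read 15.1, 15.3 and 14.4 CPM against 13.7, 13.2 and 17.2 CPM in MMP2sh1 cells (difference −1.08). PDGFRA, a receptor for platelet-derived growth factors, and SHISA3 had differences of −0.97 and −0.95. At the high end, DIO2 (an enzyme that activates thyroid hormone) fell from 8.57 ± 1.20 to 2.59 ± 0.323 CPM in control and was at 11.9 ± 1.26 and 9.80 ± 0.892 CPM in MMP2sh1 cells (difference 1.44, adjusted p = 2.8e-05). KRT34, NRXN3, TRPV6 and the noncoding RNA MIAT had differences of 1.31, 1.22, 1.11 and 1.02. MIAT rose in MMP2sh1 cells from 10.2 ± 1.67 to 24.3 ± 2.83 CPM (1.24), to a level near the 28.0 ± 2.14 CPM of control at day 0.

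**Figure D4:**
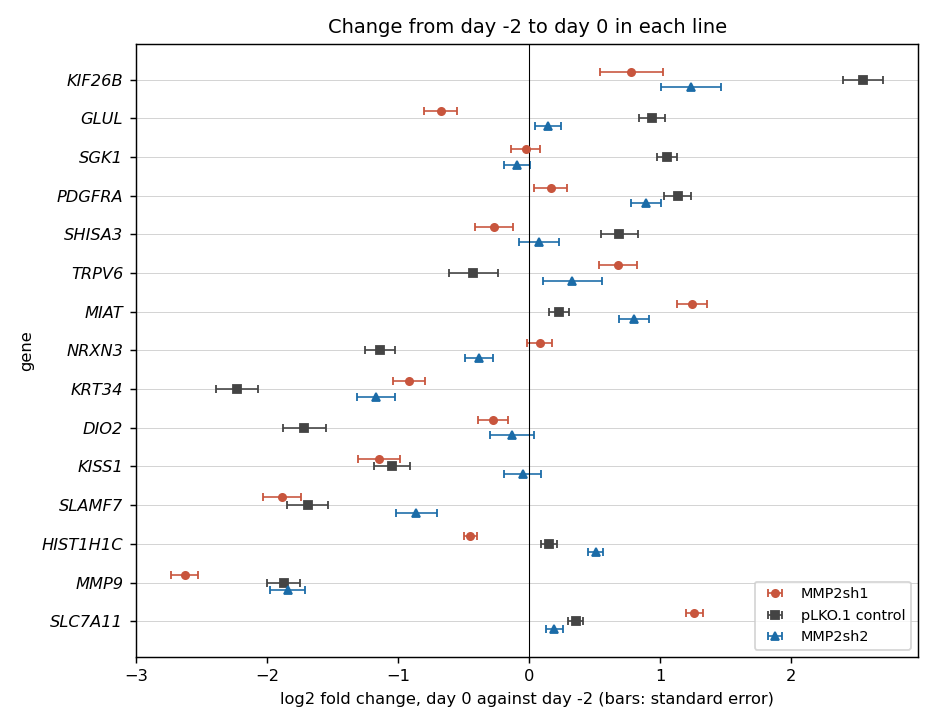
Log2 fold change from day −2 to day 0, with its standard error, for 15 genes in MMP2sh1, control and MMP2sh2 cells, each line from its own fit of 6 libraries. SLC7A11 lies at 1.26 in MMP2sh1 cells and at 0.35 and 0.19 in the other lines, and GLUL at −0.68 against 0.93 and 0.14.

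Some histone genes differed between the lines. Of 30 histone genes tested in MMP2sh1 cells, 9 were lower and 3 higher (median −0.11), and the change differed for 7 against control (background 1.35%) and 4 against MMP2sh2 (background 0.458%). HIST1H1C, a linker histone gene, read 172, 161 and 163 CPM at day −2 and 121, 120.2 and 121 CPM at day 0 (−0.45, standard error 0.05, adjusted p = 4.9e-07). In control it was at 136 ± 14.7 and 150.3 ± 12.4 CPM and in MMP2sh2 cells at 237 ± 22.4 and 338 ± 13.3 CPM, with differences of −0.60 (adjusted p = 8.2e-05) and −0.95 (adjusted p = 7.8e-09). HIST1H2BK (−0.76 in MMP2sh1 cells) differed by −0.56 and −0.61, and HIST1H2AC (−0.65) by −0.63 and −0.76. Most replication-dependent histone transcripts lack a poly(A) tail, and these libraries hold only the tailed part.

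Against MMP2sh2, KISS1 (the kisspeptin precursor) had the lowest difference among called genes with a mean of at least 5 CPM. It read 12.5, 13.9 and 13.2 CPM at day −2 and 6.15, 7.61 and 3.95 CPM at day 0 in MMP2sh1 cells and was at 9.19 ± 1.56 and 8.90 ± 1.42 CPM in MMP2sh2 cells (difference −1.09, standard error 0.23, adjusted p = 0.019). SLAMF7 differed by −1.02 (adjusted p = 0.022) and IL32 by −0.77 (adjusted p = 0.022), and SLC2A12 by 0.73 (adjusted p = 0.011). The calls of KISS1, SLAMF7, IL32 and SLC2A12 were each lost on leaving out at least 1 library; without the third MMP2sh1 library of day 0 the adjusted p of the first 3 was 0.068, 0.091 and 0.088. High differences belonged to MTND4P12 (1.51), MTRNR2L12 (1.5), GAPDHP1 (1.32) and EEF1A1P13 (1.25), which are pseudogenes or near-copies of mitochondrial and abundant housekeeping genes. Reads of such genes can be assigned to any of several copies, the values are uncertain, and in MMP2sh1 cells their own log2 fold changes lay between −0.44 and −0.19. In MMP2sh2 cells their log2 fold changes lay between −1.80 and −1.64. RPL26 has copies of the same kind: it rose by 0.79 in MMP2sh1 cells, above control (difference 0.81) and below MMP2sh2 (difference −0.71).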

How the data were processed

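The authors deposited 1 table of HTSeq counts for each library, made by their methods and processing notes with Trim Galore 0.6.0, STAR 2.7.3a on hg19 and HTSeq 2.0.0, without strand and over exons in union mode. Counts of antisense, overlapping and near-identical genes cannot be separated. The 5 summary lines were left out of totals and tests: reads on no gene were 5.89% to 8.25% and ambiguous reads 7.14% to 7.69%.

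The 6 libraries were fitted in edgeR 4.0.16 under R 4.3.3 after TMM scaling and filterByExpr (minimum count 10, minimum total 15), and genes were called by the quasi-likelihood test at a Benjamini-Hochberg adjusted p under 0.05. A standard error is the size of the log2 fold change divided by the square root of F. Differences between lines are interaction terms over 12 libraries. Levels are CPM with TMM factors over all 27 libraries, so ratios of levels differ slightly from fitted changes. The p values measure the spread between 3 cultures of 1 line. The alternatives included DESeq2 1.42.0. Day −2 and day 0 libraries of the same replicate number had correlations of deviations of 0.05, 0.00 and 0.03, against −0.04 to 0.01 for the other pairs. These values do not settle whether the numbers pair the libraries, and the main fit used no pairing. On simulated counts with 200 genes changed 2-fold, 179 were recovered with 11 others called of 18556 genes, and in the interaction 159 with 5 others of 20052. The changed genes were drawn only from those above a floor on the expected count. Changes under 2-fold, as most calls within MMP2sh1 cells were, were not simulated, so these shares do not describe them.

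Named genes are MMP2 and CTSB, the 12 largest called rises and falls with a mean of at least 5 CPM and no overlap (clone-style symbols excluded), the anchors of each list and its 2 largest called rises and falls of at least 5 CPM, the 5 highest and lowest called differences per pair of lines, and the 5 most abundant genes called each way. Others were named after their values were seen. The members and the 37 lists were chosen with earlier results of these data known, and the NF-kB list after values were seen. Positions are from GENCODE on GRCh37 and promoters from RefSeq on GRCh38.p14. Some genes that the rule names are not reported here.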

Additional observations from a re-analysis of the deposited data

Results flagged for a closer look

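The results named here stand out because the change from day −2 to day 0 in MMP2sh1 cells differed from the change in another line, by the interaction term of edgeR over 12 libraries; values are differences of the log2 change, MMP2sh1 minus the other line. Against control, the change was lower in MMP2sh1 cells for KIF26B (−1.77), GLUL (−1.61), SGK1 (−1.08), PDGFRA (−0.97), SHISA3 (−0.95), RNF43 (−0.95), MMP9 (−0.76), HIST1H1C (−0.60), KRT8 (−0.57) and CTSB (−0.46). It was higher for DIO2 (1.44), KRT34 (1.31), NRXN3 (1.22), TRPV6 (1.11), MIAT (1.02) and SLC7A11 (0.91).

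Against MMP2sh2, the change was lower for KISS1 (−1.09), SLAMF7 (−1.02), HIST1H1C (−0.95), GLUL (−0.81), MMP9 (−0.78) and IL32 (−0.77), and higher for SLC7A11 (1.08) and SLC2A12 (0.73). MTND4P12 (1.51), MTRNR2L12 (1.5), GAPDHP1 (1.32) and EEF1A1P13 (1.25) were higher too, and these share sequence with mitochondrial or abundant genes, so that the assignment of their reads is uncertain. In MMP2sh2 cells these 4 fell, by log2 fold changes of −1.80, −1.68, −1.64 and −1.67. In MMP2sh1 cells they had −0.30, −0.19, −0.33 and −0.44. Among the genes named in this section, GLUL, SLC7A11, HIST1H1C and MMP9 differed from both lines, and both differences share the MMP2sh1 libraries. For MMP9 the call against MMP2sh2 was lost on leaving out each of 7 libraries in turn, and the call against control on leaving out 1. The calls against MMP2sh2 were lost in the same way with 6 libraries for SLAMF7, 4 for IL32, 3 for KISS1 and 1 for SLC2A12.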

How the results depend on the processing

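The count of genes called from day −2 to day 0 stayed between 6053 and 6858 under DESeq2 on the same or all 27 libraries, edgeR on all 27, median-of-ratios scaling, library totals and other filters; it was 4750 to 6356 when single libraries were left out and 4178 at an adjusted p under 0.01. With the replicate number as a block it was 6978, of which 6180 were also called without it. The block gave 323 differences against control and 131 against MMP2sh2. Whether the numbers pair the libraries is not settled. Differences against control numbered 533 by DESeq2 on the same libraries, 424 by DESeq2 on all 27, and 144 to 512 on leaving out single libraries (fewest without the second MMP2sh1 library of day 0). Against MMP2sh2 they numbered 176, 202 and 45 to 178, and 187 with no filter on low counts. The causes were not tested.

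Library totals in place of TMM raise every change by a near-constant amount. List medians (log2) then became 0.14 for DNA replication, 0.18 for CDK inhibitors, −0.026 for YAP targets, −0.18 for SRF and actin, −0.16 for cholesterol, 0.12 for fatty acids, −0.11 for glycolysis and hypoxia, 0.14 for matrix glycoproteins, 0.011 for cadherins, 0.15 for interferon-stimulated genes, −0.24 for HLA, −0.012 for p53, −0.18 for ATF4, −0.038 for NRF2, 0.21 for FOXO, 0.038 for ribosomal proteins, −0.15 for ribosome biogenesis, −0.037 for the respiratory chain, −0.027 for growth factors, −0.60 for metallothioneins, −0.065 for mitochondrially encoded genes, −0.026 for lysosomal genes, −0.036 for histones, 0.17 each for mitosis, TGF-beta and BMP, and Notch and WNT, 0.20 for nonfibrillar collagens, 0.16 for mesenchymal markers and −0.34 for NF-kB. The CDK inhibitor median was 0.0501 and 0.0688 by DESeq2 and edgeR on all 27 libraries and 0.13 with at least 10 counts in every library; the interferon median was 0.047 by DESeq2 on all 27. With no filter the YAP median was −0.054 and the metallothionein median −0.80. The medians of collagen modification, MMP and TIMP, and epithelial marker genes lie near 0 and changed sign in some settings. Leaving out single libraries, medians ranged from 0.25 to 0.59 for fibrillar collagens, 0.010 to 0.15 for nonfibrillar collagens, −0.31 to −0.0066 for mitochondrially encoded genes, 0.018 to 0.078 for interferon-stimulated genes, −0.12 to −0.060 for p53, −0.12 to −0.076 for the respiratory chain and −0.21 to −0.079 for epithelial markers.

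Single genes that changed sign were all uncalled: MMP14 was −0.0035 by DESeq2 on all 27 libraries and SGK1 0.048 with library totals. On leaving out single libraries COL1A1 ranged from −0.040 to 0.14, TIMP2 from −0.043 to 0.10, MMP14 from −0.098 to 0.095, SGK1 from −0.15 to 0.038 and NRXN3 from −0.012 to 0.16. Of the gene values, 39 alternatives lost a call and 6 gained one, ASNS in 5 and LDHA in 1, while 2253, called or not, kept their direction and side of the threshold; of the differences between lines, 23 lost a call and 537 kept direction and side. Calls of CDK1, MYH10, TIMP1, RPS27A, KIF26B, EEF1A1P13, MT-CYB and MT-RNR2 were lost in at least 1 alternative each, RPS27A on leaving out any of 5 libraries and MT-CYB any of 4.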

Other observations

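Some of the widest changes were in secreted factors of low level, chosen here after their values were seen. IL24, a cytokine, had a log2 fold change of −2.85 (standard error 0.26, adjusted p = 2.9e-08 by edgeR) at a mean of 3.07 CPM, and in MMP2sh2 cells it had −1.40. AREG, an EGF receptor ligand, had −2.73 (standard error 0.37, adjusted p = 7.2e-06) at a mean of 1.51 CPM, whereas EREG, a ligand of the same family, had 1.56 (standard error 0.31, adjusted p = 0.00046) at 2.10 CPM. Among proteases, MMP13, a collagenase, had 2.34 (standard error 0.34, adjusted p = 1.3e-05) at 1.71 CPM and MMP7, matrilysin, had 1.18 (standard error 0.29, adjusted p = 0.0029) at 1.86 CPM, the opposite direction to MMP9 and MMP3. The 6 libraries did not overlap between the days for any of these 5 genes, as was the case for 44.5% of all tested genes.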
